A study of Mus musculus with 9 samples.

Results

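The 10 genes described here are ones that healthy pancreatic beta cells are known to hold at low levels, and they were followed in mouse islets kept in culture at 3 glucose concentrations. They were chosen by name, 10 of the 22048 genes in the deposited count table, and all 10 had at least 1 count. The islets came from ICR mice, an outbred stock with no engineered allele named in the labels, and were cultured for 3 days in RPMI medium with serum and antibiotics. The groups were islets in normal medium with 11.8 mM glucose, in 20 mM glucose and in 35 mM glucose, which the series presents as normal, high and extremely high, with 3 libraries each. The labels' treatment text gives 25 mM for the highest concentration, whereas titles and sample descriptions give 35 mM, the value used here. Islets of 9 mice were used, and the labels do not say that each library is a separate mouse, so p-values measure the spread between libraries.

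Beta cells sense glucose by metabolising it, and they keep a small set of otherwise widely expressed genes low, often called disallowed genes. Among these are the plasma membrane carrier of lactate and pyruvate and the high-affinity hexokinases, whose presence would let fuels other than high glucose drive insulin release. Others take part in amino acid and lipid handling, growth factor and TGF-beta signalling, chemokine signalling, transcription and mRNA decay. Several are abundant in other cells of the pancreas, and an islet preparation holds such cells.

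Libraries were made by CEL-Seq2, which tags the 3' end of each transcript, and held 3228648 to 4559561 counts in genes. Levels are given in counts per 1e6 counts (CPM) scaled by TMM, the trimmed mean normalization of edgeR. A 3' tag counts a transcript end, so levels are not divided by gene length. A floor of 3 counts corresponded to 0.658 to 0.929 CPM across libraries before TMM scaling, so it is not on the scale of the levels. Intervals of summed counts and floors cover counting error only. Of 10 beta cell markers, 9 averaged 61.9 CPM or more, led by Ins2 and Ins1. The sum of the 10 was 447289 to 650648 CPM across libraries on this TMM scale, which is not a share of a library's own counts. Mafa, a beta cell transcription factor, had 1 count in all 9 libraries together. Whether so low a count reflects the transcript's level or how its 3' end was counted was not tested. The same holds for other genes of few counts. These are whole islets, so fewer cells of a type and less RNA per cell cannot be told apart.

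The members' levels spanned a wide range, from 0.300 CPM for Slc16a1 to 18.7 CPM for Oat as means over 9 libraries. Oat, the mitochondrial ornithine aminotransferase, ranked 3570 among 22048 genes by mean CPM. Lmo4, a LIM-only transcriptional adaptor, averaged 18.0 CPM and ranked 3682. Both lay above 10 CPM, a level that 5404 genes of the table reached, so in these whole islets they were not among the low genes.

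Another 6 members lay between 3 and 10 CPM in their means. They were Smad3 at 7.52 CPM, Hk1 at 7.18 CPM, Zfp36l1 at 6.60 CPM, Igfbp4 at 5.81 CPM, Cxcl12 at 4.41 CPM and Acot7 at 3.44 CPM. The median of the 15985 genes with a count was 4.48 CPM, so 4 of these 6 lay above it and 2, Cxcl12 and Acot7, just below. Mgst1, a microsomal glutathione transferase, averaged 1.29 CPM. Slc16a1, which encodes the monocarboxylate carrier MCT1, averaged 0.300 CPM and ranked 13090. In the order of the 10 means, the only neighbours whose ranges over 9 libraries did not overlap were Lmo4 and Smad3. Lmo4 stood between 14.6 and 24.6 CPM and Smad3 between 2.03 and 14.1 CPM.

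**Figure D1:**
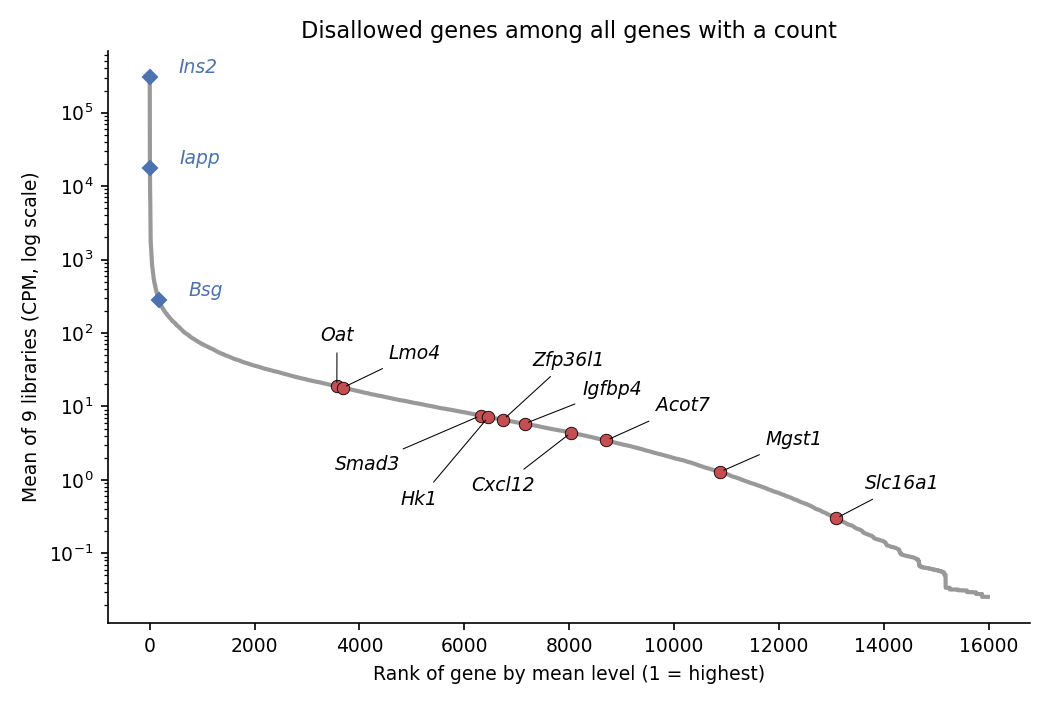
Mean level over 9 libraries (vertical axis, TMM-scaled CPM, log scale) of all 15985 genes with a count, ordered by rank (horizontal axis, 1 = highest), as a grey line. Red points are the 10 disallowed genes, between Oat at rank 3570 and Slc16a1 at rank 13090, and blue diamonds are Ins2, Iapp and Bsg for scale, all 3 above every disallowed gene.

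Slc16a1 (ENSMUSG00000032902, chr3:104638668-104658462, plus strand, GRCm38) had 10 counts in all libraries together. Its counts were 2, 1 and 0 in the 11.8 mM libraries, 1, 2 and 1 in the 20 mM libraries and 0, 0 and 3 in the 35 mM libraries. No library exceeded the floor of 3 counts and 3 libraries had none, so no fold is given. Summed counts of 3 at 35 mM and 3 at 11.8 mM have the same exact 95% Poisson interval, 0.619 to 8.77 counts. That interval takes each count as independent. Copied reads were not collapsed in these counts, so it may be too narrow. A difference in Slc16a1 was not detectable at this depth.

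The base sequence upstream of a gene's start is shown for the member with the lowest level and for the member with the largest fold change between 35 and 11.8 mM, Cxcl12, to let the CG content of their promoters be compared. Each line gives the 250 bases before the start annotated by RefSeq on GRCm38.p6, 5′ to 3′ on the gene's plus strand, with every CG dinucleotide in capitals. The first is chr3:104638414-104638663 and the second chr6:117168285-117168534.
Slc16a1: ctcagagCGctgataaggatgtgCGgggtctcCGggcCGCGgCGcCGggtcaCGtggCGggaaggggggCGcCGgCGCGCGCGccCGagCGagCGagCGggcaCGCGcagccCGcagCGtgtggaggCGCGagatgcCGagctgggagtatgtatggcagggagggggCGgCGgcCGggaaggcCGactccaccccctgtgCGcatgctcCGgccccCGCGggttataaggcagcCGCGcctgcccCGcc
Cxcl12: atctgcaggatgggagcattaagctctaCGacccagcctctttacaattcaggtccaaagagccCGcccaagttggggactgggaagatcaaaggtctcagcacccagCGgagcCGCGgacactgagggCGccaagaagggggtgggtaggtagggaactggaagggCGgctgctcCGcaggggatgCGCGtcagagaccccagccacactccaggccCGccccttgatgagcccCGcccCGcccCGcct
The Slc16a1 stretch holds 37 CG dinucleotides and the Cxcl12 stretch 14.

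In windows of 300 bases, from 250 before to 50 after the start, RefSeq gave 14 promoters for the 10 genes. Their median was 21 CG dinucleotides and 64.0% G or C, against 21 and 61.3% for the 10070 promoters of tested genes and 7 and 52.7% for all 32851 promoters. Promoters of 1 gene could differ widely: Hk1 had starts with 1 and 20 CG dinucleotides, and Lmo4 had starts with 52, 31 and 30. A 3' tag does not tell which start a transcript used. The E-box CACGTG, read on both strands since it is its own reverse complement, occurred in 1 of the 14, that of Slc16a1 (7.14%). It occurred in 7.15% of all promoters and 10.1% of those of tested genes. A match of letters is not a site in use.

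Enough counts for a test were found for 8 members, and none of the 8 was called in any comparison. A call means an adjusted p under 0.05 in edgeR's quasi-likelihood test, with the Benjamini-Hochberg method over 9739 genes. The same test called 84 genes (0.863%) at 35 against 11.8 mM, 18 genes (0.185%) at 20 against 11.8 mM and 3 genes (0.0308%) at 35 against 20 mM. Any difference among the 3 concentrations was called for 59 genes (0.606%) and 0 of the 8 members, with a smallest adjusted p of 0.641 for Cxcl12. At an unadjusted p under 0.05 the members numbered 1 of 8 at 35 against 11.8 mM, against 10.5% of all genes. They numbered 0 of 8 at 20 against 11.8 mM (7.97% of all genes) and 0 of 8 at 35 against 20 mM (5.29% of all genes). The same shares of all genes stand beside the unadjusted counts of the gene lists below. DESeq2 also called 0 members, with an adjusted p for 6 of them at 35 against 11.8 mM, for none at 20 against 11.8 mM and for 10 at 35 against 20 mM. With shares of all genes this small, 0 of 8 is near the background.

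The members' log2 fold changes ran between -0.35 for Acot7 and 0.93 for Cxcl12 at 35 against 11.8 mM, with a median of -0.19 against -0.0027 over all genes. At 20 against 11.8 mM they ran between -0.71 for Igfbp4 and 0.54 for Cxcl12, with a median of -0.12 against -0.0016. With 1 library left out in turn, that of Igfbp4 lay between -1.25 (without 20 mM replicate 2) and -0.40 (without 11.8 mM replicate 2), and that of Cxcl12 between 0.14 (without 11.8 mM replicate 3) and 1.53 (without 11.8 mM replicate 2). At 35 against 20 mM they ran between -0.57 for Acot7 and 0.96 for Igfbp4, with a median of 0.19 against -0.0012. Each of the 3 comparisons shares libraries with both others, so they are not independent of each other.

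**Figure D2:**
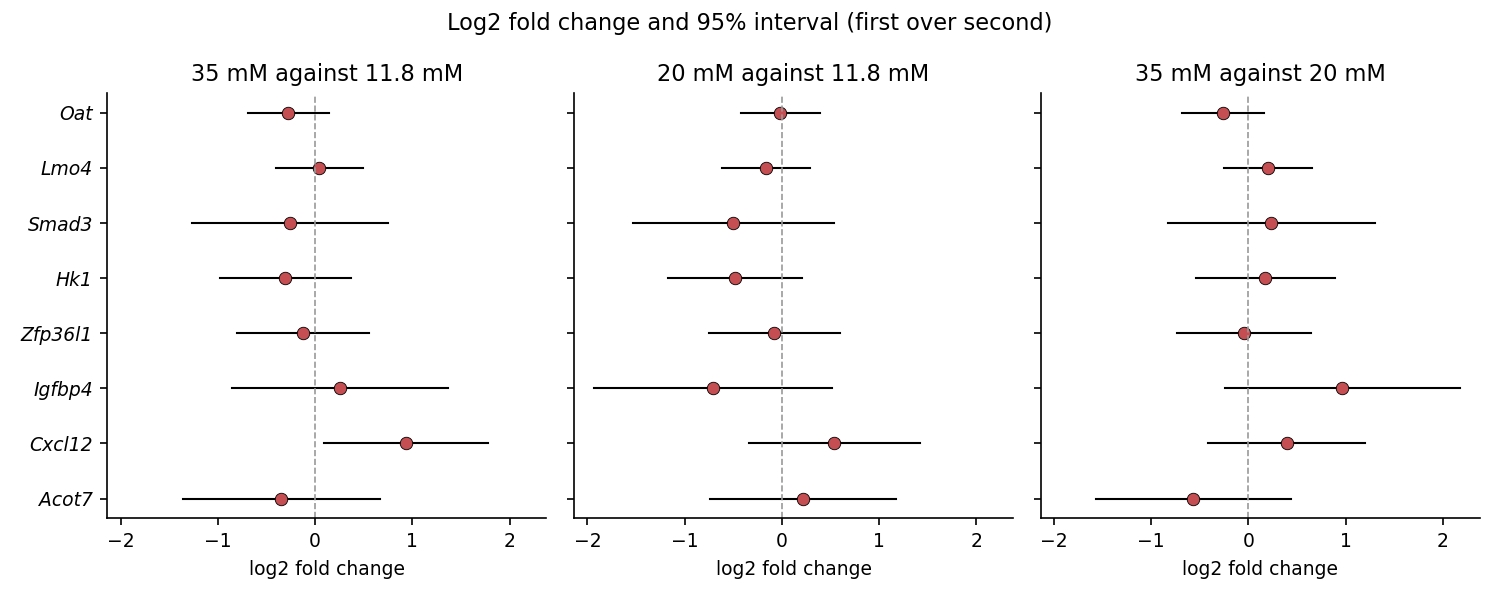
Log2 fold change of the 8 tested disallowed genes in each comparison (horizontal axis, edgeR; first concentration over second), with points at the estimate and bars for the 95% interval. All intervals include 0 except that of Cxcl12 at 35 against 11.8 mM, which runs between 0.089 and 1.78 and has an adjusted p of 0.416.

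Cxcl12 (ENSMUSG00000061353, chr6:117168535-117181367, plus strand) encodes a chemokine that stromal cells of many tissues secrete and that attracts cells bearing CXCR4. It measured 2.12, 5.76 and 0.871 CPM at 11.8 mM, 4.60, 4.28 and 4.50 CPM at 20 mM, and 6.95, 5.79 and 4.81 CPM at 35 mM. The 35 mM libraries overlapped those at 11.8 mM because of 11.8 mM replicate 2 alone, and they lay wholly above those at 20 mM. At 35 against 11.8 mM the log2 fold change was 0.93 ± 0.41 (SE), or 1.91-fold, with an unadjusted p of 0.0314 and an adjusted p of 0.416 in edgeR's test. Counts behind it were 26, 20 and 17 at 35 mM and 8, 25 and 3 at 11.8 mM. Without 11.8 mM replicate 2 the value was 1.92 ± 0.47 with an adjusted p of 0.0321 in edgeR's test, and over all alternatives the adjusted p ran between 0.0321 and 0.770. That library's 25 counts came from its 3 barcoded sub-libraries as 0, 13 and 12. At 35 against 20 mM, Cxcl12 was the 1 member of 8 whose libraries did not overlap, against 11.9% of all genes, and its log2 fold change was 0.39 ± 0.40 (adjusted p = 0.960).

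The receptors of CXCL12 had few counts. Cxcr4 averaged 1.38 CPM and Ackr3, which takes up the chemokine, had 3 counts in all libraries. Dpp4, a protease that trims CXCL12, was the 1 tested gene of the 3 in this list and was not called, with a log2 fold change of 0.34 ± 0.21 at 20 against 11.8 mM (adjusted p = 0.734).

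Oat (ENSMUSG00000030934, chr7:132557478-132576398, minus strand) links ornithine to glutamate and proline metabolism. It measured 21.5, 20.1 and 18.3 CPM at 11.8 mM, 24.2, 20.9 and 14.3 CPM at 20 mM, and 16.6, 15.3 and 17.5 CPM at 35 mM. Every 35 mM library lay below every 11.8 mM library, the 1 member of 8 without overlap in that comparison, against 14.9% of all genes. The log2 fold change at 35 against 11.8 mM was -0.28 ± 0.20, with a 95% interval from -0.69 to 0.14 and an adjusted p of 0.712. At 20 against 11.8 mM it was -0.014 ± 0.20, no member having libraries without overlap there, against 12.8% of all genes.

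Other genes of ornithine and proline metabolism were measured in 12 of 13 listed, and 9 were tested. Of these, 2 rose at 35 against 11.8 mM and 7 were not called, and none of the 9 was called in the other comparisons, where 2 and 1 had an unadjusted p under 0.05. Pycr1, the last enzyme of proline synthesis, averaged 48.6 ± 0.627 CPM at 35 mM and 25.2 ± 3.83 CPM at 11.8 mM (SD, n = 3 each), a log2 fold change of 0.95 ± 0.16 (edgeR adjusted p = 8.44e-04). Odc1, which turns ornithine into putrescine, averaged 60.7 ± 12.6 CPM at 35 mM and 38.8 ± 5.62 CPM at 11.8 mM (SD, n = 3 each), a log2 fold change of 0.64 ± 0.16 (edgeR adjusted p = 0.0444). Pycr1 kept its call in 17 of 17 alternatives and Odc1 in 8 of 17. Odc1 no longer passed when replicates 1 or 3 of the 11.8 mM group, 1 or 2 of the 20 mM group, or 1 or 3 of the 35 mM group were left out singly, with adjusted p-values between 0.0554 and 0.420 in edgeR's test. Its call was also lost with a replicate block (adjusted p = 0.0535), with only the 2 concentrations compared (adjusted p = 0.0839) and without 2 sub-libraries of low insulin share (adjusted p = 0.0640). The list's median log2 fold change at 35 against 11.8 mM was 0.35, while the value of Oat was -0.28.

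Hk1 (ENSMUSG00000037012, chr10:62268855-62379908, minus strand) encodes hexokinase 1, which phosphorylates glucose with high affinity. It measured 6.37, 14.3 and 4.65 CPM at 11.8 mM, 4.91, 6.80 and 6.74 CPM at 20 mM, and 8.02, 5.21 and 7.64 CPM at 35 mM. The highest of the 9 values was 11.8 mM replicate 2 and the lowest 11.8 mM replicate 3, and all groups overlapped. The log2 fold change was -0.31 ± 0.33 at 35 against 11.8 mM (adjusted p = 0.841) and -0.48 ± 0.34 at 20 against 11.8 mM (adjusted p = 0.784). Without 11.8 mM replicate 2 these became 0.33 and 0.16. Exons of Hk1 overlap the antisense gene Hk1os, which has no row in the count table, and the counting strand is not given, so reads of the pair cannot be told apart.

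Other high-affinity hexokinases had few counts. Hk2 averaged 0.680 CPM and Hk3 0.935 CPM over 9 libraries, and Hkdc1, a related gene, had no count. Of 12 listed hexokinase, pyruvate and lactate genes, 8 were tested and 0 were called in any comparison, with 1, 0 and 2 at an unadjusted p under 0.05 at 35 against 11.8, 20 against 11.8 and 35 against 20 mM. The smallest p belonged to Pkm, pyruvate kinase, at 904 ± 96.7 CPM in 35 mM and 694 ± 80.9 CPM in 20 mM (SD, n = 3 each), a log2 fold change of 0.38 ± 0.15 (edgeR adjusted p = 0.905). Ldha, lactate dehydrogenase A and itself among the classical disallowed genes, was measured at 26.8, 58.6 and 14.2 CPM at 11.8 mM. Slc16a3, the lactate exporter MCT4, was measured at 6.63, 30.0 and 1.45 CPM there. Both were highest in replicate 2 and lowest in replicate 3, as Hk1 was. Bsg, the chaperone of these carriers, averaged 277 CPM. Among the other listed genes at 11.8 mM, Pkm was also highest in replicate 2 and lowest in replicate 3. By contrast, Ldhb, Hk3 and Mpc2 were highest in replicate 3. Hk2 and Slc16a7 were highest in replicate 1 and lowest in replicate 3. Bsg and the pyruvate genes Mpc1 and Pdha1 were highest in replicate 2 and lowest in replicate 1.

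Smad3 (ENSMUSG00000032402, chr9:63646767-63757994, minus strand) carries signals of TGF-beta and activin receptors to the nucleus. It measured 10.1, 14.1 and 2.03 CPM at 11.8 mM, 8.28, 6.04 and 4.78 CPM at 20 mM, and 6.68, 6.36 and 9.34 CPM at 35 mM. Within the 11.8 mM group the highest library was 6.92 times the lowest, against 1.73 at 20 mM and 1.47 at 35 mM. The log2 fold change was -0.26 ± 0.46 at 35 against 11.8 mM (adjusted p = 0.907) and turned to 0.27 without 11.8 mM replicate 2. It was -0.50 ± 0.47 at 20 against 11.8 mM (adjusted p = 0.881) and turned to 0.038 without the same library. Of 17 listed TGF-beta and SMAD genes, 12 were tested and none was called by edgeR in any comparison, with 1, 0 and 1 at an unadjusted p under 0.05. Tgfbr1, the type I receptor, averaged 10.9 ± 0.593 CPM at 35 mM and 15.2 ± 1.34 CPM at 11.8 mM (SD, n = 3 each), a log2 fold change of -0.48 ± 0.21 (edgeR adjusted p = 0.418). Smad4, the shared partner of the receptor-regulated SMADs, averaged 17.4 CPM and Smad2 3.51 CPM.

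Igfbp4 (ENSMUSG00000017493, chr11:99041244-99054392, plus strand) encodes a secreted protein that binds IGFs and holds them from their receptor. It measured 8.23, 8.53 and 1.74 CPM at 11.8 mM, 1.84, 6.04 and 3.37 CPM at 20 mM, and 9.35, 9.55 and 3.68 CPM at 35 mM. In the 11.8 and 35 mM groups 1 library each, replicate 3, lay far below its group, and all groups overlapped. Its log2 fold change of 0.96 ± 0.56 at 35 against 20 mM was the largest among the members there (95% interval -0.24 to 2.17; adjusted p = 0.932). It was 0.66 without 20 mM replicate 1 and 1.51 without 20 mM replicate 2, the lowest and highest values with 1 library left out. At 35 against 11.8 mM it was 0.26 ± 0.51 (adjusted p = 0.917), and -0.16 without 11.8 mM replicate 3. Igfbp4 had the largest biological coefficient of variation of the 8 tested members, 41.6%, against a median of 15.5% over all tested genes. That coefficient is edgeR's estimate of the spread between libraries beyond counting error.

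Of 12 other IGF ligands, receptors and binding proteins, 7 were tested. Among them 1 rose at 35 against 11.8 mM, and 0 were called in the other comparisons, where 1 and 1 had an unadjusted p under 0.05. Igf1r, the IGF-1 receptor, averaged 227 ± 4.50 CPM at 35 mM and 153 ± 4.15 CPM at 11.8 mM (SD, n = 3 each), a log2 fold change of 0.57 ± 0.14 (edgeR adjusted p = 0.0444). Its direction held in 17 of 17 alternatives and its call in 9. The call ended when replicates 2 or 3 of the 11.8 mM group, replicate 3 of the 20 mM group, or any one 35 mM library was left out singly (adjusted p between 0.0526 and 0.180 in edgeR's test). It also ended with a replicate block (adjusted p = 0.0640) and without 2 sub-libraries of low insulin share (adjusted p = 0.0711). The other 6 tested genes had log2 fold changes below 0 at 35 against 11.8 mM, none of them called. Igfbp7, another IGF-binding protein gene, averaged 163 CPM and Igfbp5 36.0 CPM.

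Lmo4 (ENSMUSG00000028266, chr3:144188530-144205220, minus strand) measured 14.6, 24.2 and 16.3 CPM at 11.8 mM, 16.3, 18.1 and 15.2 CPM at 20 mM, and 14.7, 17.9 and 24.6 CPM at 35 mM. A single library was high in each of the 11.8 and 35 mM groups, and the groups overlapped. Its log2 fold change at 35 against 11.8 mM, 0.043 ± 0.22, had an interval from -0.40 to 0.49. Of 8 LIM-only genes and partners 6 were tested and 0 were called by edgeR in any comparison, with 1, 1 and 1 at an unadjusted p under 0.05. Lmo1, another LIM-only gene, averaged 12.5 ± 3.50 CPM at 20 mM and 7.33 ± 2.84 CPM at 11.8 mM (SD, n = 3 each), a log2 fold change of 0.75 ± 0.29 (edgeR adjusted p = 0.446). Ldb1, the cofactor that LIM domains bind, averaged 22.6 CPM, and Isl1, an islet LIM homeodomain factor, 59.6 CPM.

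Zfp36l1 (ENSMUSG00000021127, chr12:80107754-80113013, minus strand) encodes a protein that binds AU-rich elements and speeds mRNA decay. It measured 6.10, 9.68 and 4.65 CPM at 11.8 mM, 8.59, 3.78 and 7.59 CPM at 20 mM, and 6.95, 7.52 and 4.53 CPM at 35 mM. No group stood apart, and log2 fold changes were -0.13 ± 0.33, -0.076 ± 0.33 and -0.050 ± 0.34 at 35 against 11.8, 20 against 11.8 and 35 against 20 mM. Its exons overlap Gm26669 on the opposite strand, which has no row in the table, and without the counting strand the reads of the pair cannot be told apart. Of 9 ZFP36 family and mRNA decay genes, 9 were tested and 0 were called by edgeR, with 1, 0 and 2 at an unadjusted p under 0.05. Cnot6, a deadenylase subunit, averaged 14.9 ± 2.51 CPM at 35 mM and 22.9 ± 1.68 CPM at 11.8 mM (SD, n = 3 each), a log2 fold change of -0.62 ± 0.20 (edgeR adjusted p = 0.180). Zfp36, which encodes tristetraprolin, averaged 20.2 CPM.

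Acot7 (ENSMUSG00000028937, chr4:152178134-152271855, plus strand) encodes a thioesterase that splits long-chain acyl-CoA. It measured 3.18, 3.46 and 3.77 CPM at 11.8 mM, 7.05, 2.77 and 2.53 CPM at 20 mM, and 0.802, 2.60 and 4.81 CPM at 35 mM. The 11.8 mM libraries lay close together, while 20 mM replicate 1 was high and 35 mM replicate 1 low. The log2 fold change of -0.57 ± 0.49 at 35 against 20 mM (adjusted p = 0.944) became 0.033 without 20 mM replicate 1, and that of -0.35 at 35 against 11.8 mM became 0.097 without 35 mM replicate 1. Of 9 other acyl-CoA thioesterase genes 5 were tested and 0 were called by edgeR, with 1 in each comparison at an unadjusted p under 0.05. Acot13 averaged 19.7 ± 4.43 CPM at 35 mM and 28.7 ± 3.60 CPM at 11.8 mM (SD, n = 3 each), a log2 fold change of -0.55 ± 0.19 (edgeR adjusted p = 0.250).

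Mgst1 (ENSMUSG00000008540, chr6:138140316-138156755, plus strand), of the MAPEG family of membrane enzymes, did not pass the filter on low counts. Its counts were 3, 7 and 4 at 11.8 mM, 10, 4 and 1 at 20 mM, and 4, 4 and 5 at 35 mM. The sums were 13 at 35 mM and 14 at 11.8 mM. In a fit without the filter its log2 fold change at 35 against 11.8 mM was 0.0056, with a 95% interval from -1.46 to 1.48 (edgeR adjusted p = 1). Of 5 other MAPEG genes, 1 was tested, Ptges, a prostaglandin E synthase, and it was not called in any comparison, with a log2 fold change of 0.49 ± 0.40 at 35 against 11.8 mM (edgeR adjusted p = 0.751).

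Another 17 genes named as disallowed in beta cells, among them Ldha, were read alongside. Of these 11 were tested and 0 were called by edgeR in any comparison. At an unadjusted p under 0.05 they numbered 0, 3 and 1, against 10.5%, 7.97% and 5.29% of all genes. Their median log2 fold change was -0.37 at 35 against 11.8 mM, -0.27 at 20 against 11.8 mM and 0.15 at 35 against 20 mM. Medians over all genes were -0.0027, -0.0016 and -0.0012. The smallest p belonged to C1qbp, a mitochondrial protein gene, at 31.7 ± 3.80 CPM in 20 mM and 40.9 ± 3.65 CPM in 11.8 mM (SD, n = 3 each), a log2 fold change of -0.37 ± 0.16 (edgeR adjusted p = 0.529). Pdgfra, a mesenchymal receptor, averaged 0.804 CPM. Across these lists, cell type markers aside, DESeq2 called the same 3 genes as edgeR, Pycr1, Odc1 and Igf1r at 35 against 11.8 mM, and, among genes to which it gave an adjusted p, none in the other comparisons.

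**Figure D3:**
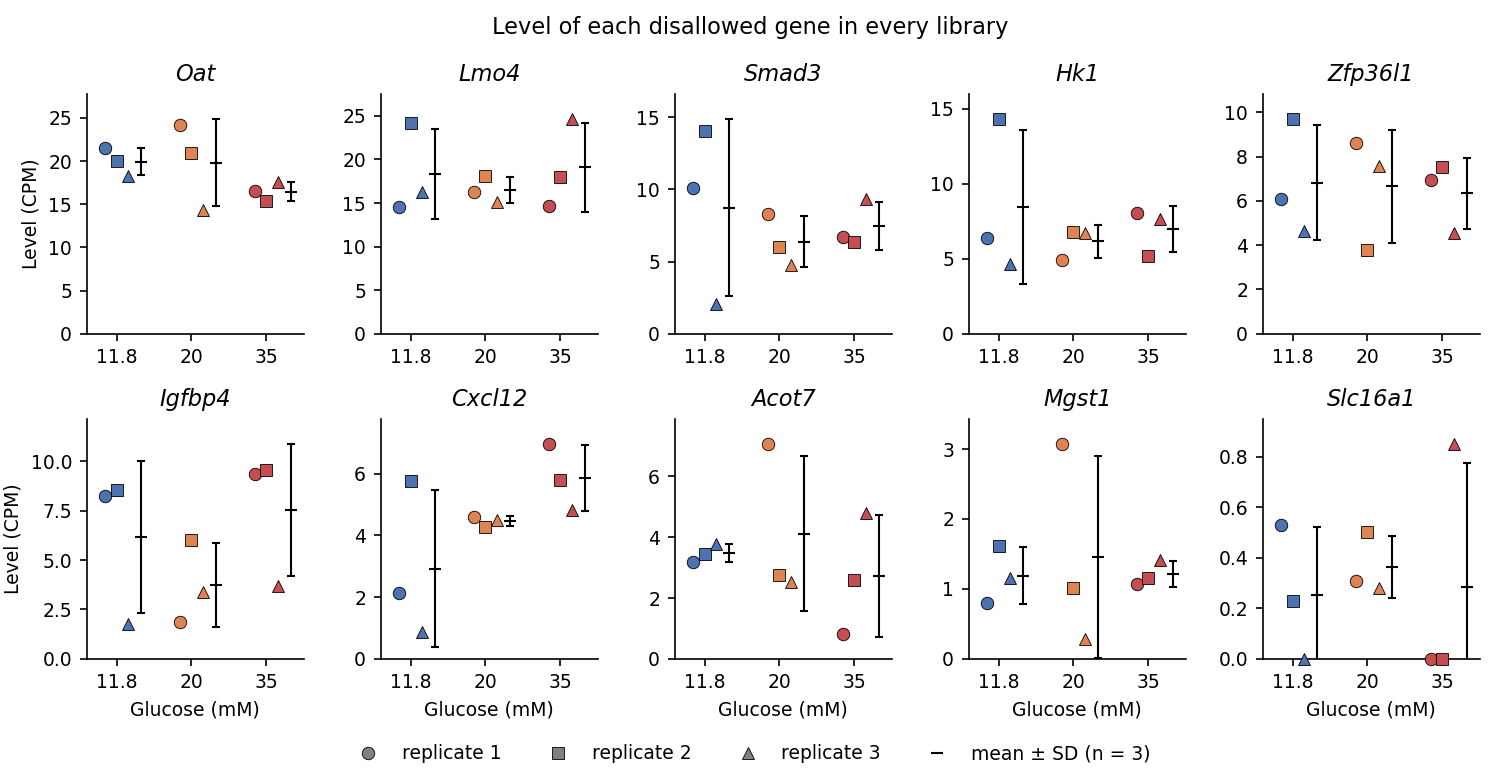
Level of each of the 10 disallowed genes by glucose concentration (horizontal axis, mM; vertical axis, TMM-scaled CPM from 0, with its own scale for each gene), with 1 point per library and the mean ± SD of 3 libraries, bars ending at 0. Smad3, Hk1 and Igfbp4 spread widely within 11.8 mM, the 35 mM points of Oat lie below its 11.8 mM points, and those of Cxcl12 lie above its 20 mM points.

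Taken as a sum, the members spread more within the 11.8 mM group than between group means, which were 76.3 ± 24.4 CPM at 11.8 mM, 69.6 ± 9.79 CPM at 20 mM and 73.9 ± 4.59 CPM at 35 mM (SD, n = 3 each). The summed level of the 10 genes was 73.5, 101.9 and 53.4 CPM at 11.8 mM, 79.1, 70.2 and 59.6 CPM at 20 mM, and 71.1, 71.5 and 79.2 CPM at 35 mM. Within the 11.8 mM group, replicate 2 was the highest for 6 of the 8 tested members, Cxcl12, Hk1, Igfbp4, Lmo4, Smad3 and Zfp36l1, and it was the highest for 32.9% of all tested genes. Replicate 3 was the lowest for 6 of 8, Cxcl12, Hk1, Igfbp4, Oat, Smad3 and Zfp36l1, and for 33.4% of all tested genes. The ratio of the highest to the lowest 11.8 mM library was 6.92 for Smad3, 6.62 for Cxcl12, 4.90 for Igfbp4 and 3.08 for Hk1, and 1.18 for Oat. Biological coefficients of variation ran between 13.9% for Oat and 41.6% for Igfbp4. Counting error alone, with each count taken as independent, gave 12.0% for Oat and 28.3% for Acot7 per library.

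Markers of other pancreatic cells varied over the same libraries. Acinar markers, 17 of 18 in the table with Amy2a5 at 2 counts in all, summed to 4743, 14284 and 4075 CPM at 11.8 mM. Their sums were 13767, 8492 and 7845 CPM at 20 mM and 11381, 7708 and 7528 CPM at 35 mM. Replicate 2 was thus the highest 11.8 mM library for these markers too, and replicate 3 the lowest. Duct markers (7 of 7) summed to 220, 314 and 199 CPM at 11.8 mM, 324, 311 and 232 CPM at 20 mM and 333, 308 and 314 CPM at 35 mM. Fibroblast and stellate markers (10 of 10) summed to 388, 424 and 251 CPM at 11.8 mM, 278, 230 and 180 CPM at 20 mM and 177, 268 and 282 CPM at 35 mM.

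Those 3 lists were therefore ordered as the summed members were at 11.8 mM, and also at 20 mM. At 35 mM fibroblast and stellate markers kept the members' order, acinar markers ran in reverse and duct markers did neither. The members' sums in 35 mM replicates 1 and 2 were nearly equal, at 71.1 and 71.5 CPM, so their order there carries little weight. Endothelial markers (9 of 9, Tek at 1 count in all) summed to 17.2, 23.1 and 21.8 CPM at 11.8 mM, 11.0 to 20.1 CPM at 20 mM and 12.4 to 15.0 CPM at 35 mM. Macrophage and immune markers (12 of 12) summed to 158, 189 and 159 CPM at 11.8 mM, 128 to 176 CPM at 20 mM and 113 to 147 CPM at 35 mM. Alpha cell markers (5 of 5) summed to 15508 to 16848 CPM at 11.8 mM, 13243 to 16717 CPM at 20 mM and 13190 to 14839 CPM at 35 mM. They had the members' order at 20 mM only. Delta and PP cell markers (4 of 4) summed to 21594, 21719 and 15349 CPM at 11.8 mM, also in the members' order. Their sums were 20159 to 23447 CPM at 20 mM and 19272 to 22204 CPM at 35 mM, in orders other than the members' there. The beta cell sum was 447289, 580672 and 650648 CPM in 11.8 mM replicates 1, 2 and 3, an order unlike that of the members. Of the 9 tested beta cell markers 1 was called, Iapp, the amyloid peptide released with insulin, at 21076 ± 557 CPM in 35 mM and 13656 ± 427 CPM in 11.8 mM (SD, n = 3 each), a log2 fold change of 0.63 ± 0.13 (edgeR adjusted p = 0.00865). DESeq2 called Iapp and G6pc2 at 35 against 11.8 mM, and both with Ucn3 at 20 against 11.8 mM, where edgeR called no marker. Of the markers of the other cell types listed, edgeR called none in any comparison, and DESeq2 none of those to which it gave an adjusted p. Unadjusted p-values of edgeR under 0.05 at 35 against 11.8 mM were found for 10.5% of all genes. They were found for 4 of 8 tested fibroblast and stellate, 4 of 11 macrophage and immune and 2 of 4 endothelial markers. The other lists had 1 of 5 alpha, 1 of 4 delta and PP, 1 of 6 duct and 0 of 16 acinar markers. The part of these cells in the members' values was not tested.

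**Figure D4:**
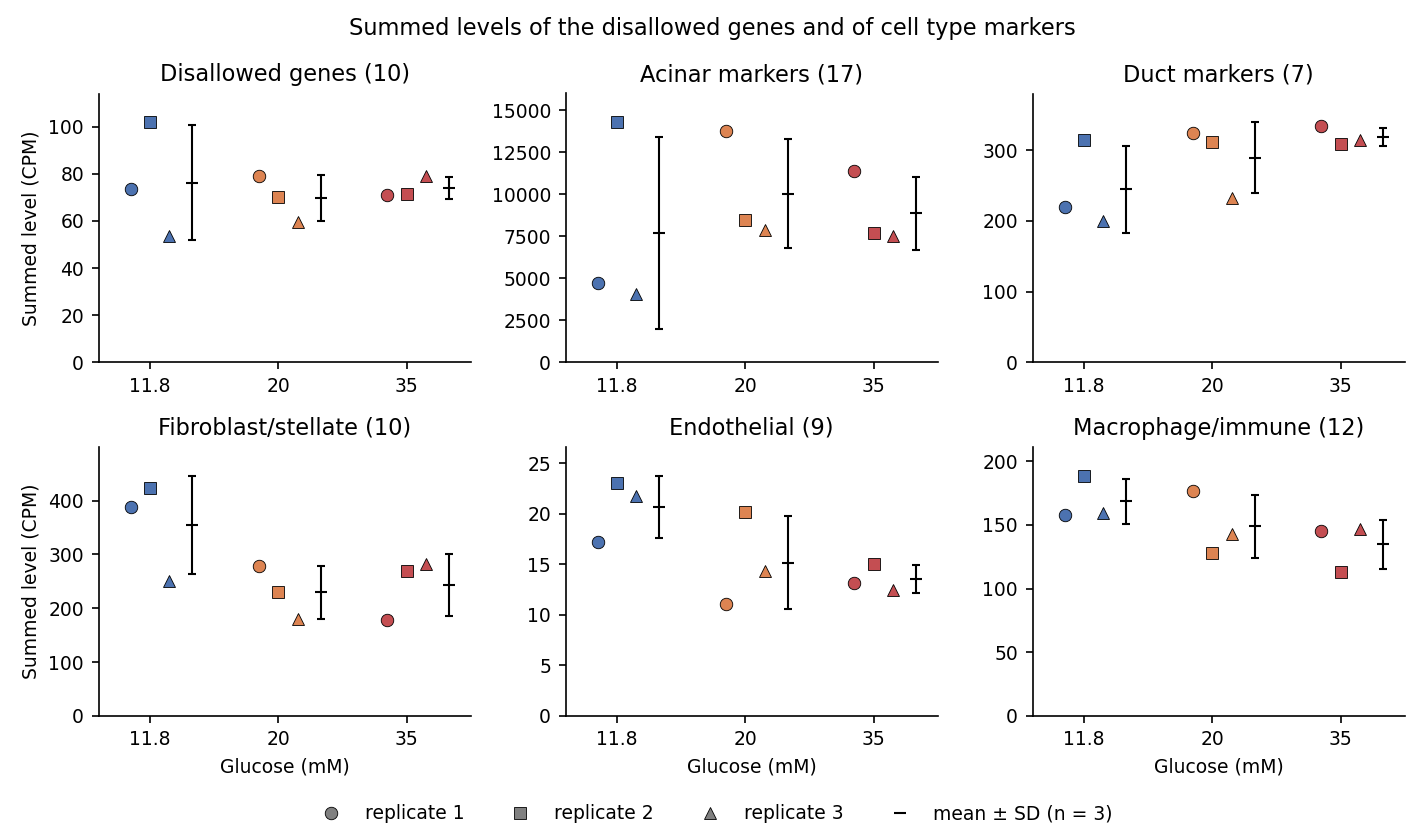
Summed level of the disallowed genes and of markers of other cell types in each library (vertical axes, TMM-scaled CPM from 0; horizontal axis, glucose in mM), with 1 point per library and the mean ± SD of 3 libraries. In the 11.8 mM group the same library is the highest for the disallowed genes, at 101.9 CPM, and for acinar markers, at 14284 CPM. In the 35 mM group the library highest for acinar markers, at 11381 CPM, is the lowest for the disallowed genes, at 71.1 CPM. Another 35 mM library is nearly equal to it for the disallowed genes, at 71.5 CPM.

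Members did not move as 1 block across libraries. Over 28 pairs of the 8 tested members the median Pearson r of log2 CPM over 9 libraries was 0.31, with a range from -0.64 for Igfbp4 and Acot7 to 0.65 for Hk1 and Smad3. The genes most like each member, among 5403 or 5402 others of at least 10 CPM, are given as a description, since the 9 points share library composition and depth. Each was picked for the highest r among all of these, so a high r over 9 points can come from the choice alone. Cxcl12 was most like Eif6, a ribosome maturation factor (r = 0.98), and Tff1, a trefoil factor (r = 0.96). Igfbp4 was most like Sncb, beta-synuclein (r = 0.95), Zfp36l1 like Cops7a, a COP9 signalosome subunit (r = 0.95), and Acot7 like Orc5, of the origin recognition complex (r = 0.93). Smad3 was most like Efr3a (r = 0.93), Oat like Ang, angiogenin (r = 0.92), Hk1 like Acadl, which oxidises long-chain fatty acids (r = 0.91), and Lmo4 like Tpd52l2 (r = 0.91).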

How the data were processed

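RNA of cultured ICR mouse islets was sequenced by CEL-Seq2 from 3 ng of RNA, with 52-base second reads and unique molecular identifiers (UMIs) of 6 bases, per the labels' protocols. The deposited values are raw counts per gene and sub-library, made by the authors. The submitters' processing notes name cutadapt, TopHat, HTSeq, DESeq2 and the build GRCm38.p4. For the annotation and the counting strand, the labels and notes read here state nothing. Counts reached 605402 in a sub-library and passed the 4096 possible UMIs for 16 genes, so they were not collapsed by UMI, and copied reads are not independent molecules.

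The 27 sub-libraries were summed to 9 libraries through the deposited sample sheet, leaving out 92 ERCC spike-ins and 5 summary lines (19.6% to 29.9% of counted reads). A further 30 columns with values of single samples carried names that match no label here, and they were left out. Symbols matched 21781 of 22048 genes in GENCODE M21, and loci come from it (GRCm38).

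Tests used edgeR 4.0.16 in R 4.3.3: TMM, filterByExpr, 1 mean per concentration over 9 libraries, the robust quasi-likelihood test, two-sided, Benjamini-Hochberg over 9739 genes, with calls at an adjusted p under 0.05 and t-based 95% intervals. The median SE of a log2 fold change was 0.248 at 35 against 11.8 mM. With 3 libraries a group, exact permutation p-values cannot fall below 0.1. DESeq2 1.42.0, other normalization and filters, each library left out and a replicate block were alternatives. The method was tested on simulated data.

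Members and gene lists were chosen with earlier results of these data known. All members were named. From each other list, cell type markers aside, the rule named called genes, or else the gene with the smallest p, and the nearest genes by Pearson r. A gene of the hexokinase, pyruvate and lactate list is not reported here and was left out of its counts. Other list genes are given as levels, chosen after their values were seen.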

Additional observations from a re-analysis of the deposited data

How the results depend on the processing

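The absence of calls among the members held in 17 alternatives except the fit without 11.8 mM replicate 2 (1 member, Cxcl12, at 35 against 11.8 mM), so that leaving out 1 library gave 0 to 1. No member had an adjusted p from DESeq2 at 20 against 11.8 mM, so it gave no count there. Some settings could call fewer members. The filter of at least 10 CPM in 3 libraries left 2 members tested. With only the 2 concentrations compared, 7 were tested at 35 against 20 mM. Of 379 recomputed log2 fold changes of the members, 355 kept their direction and side of the threshold, 1 passed it and 23 turned sign, 22 of them with a library left out. The other was Oat at 20 against 11.8 mM without 2 sub-libraries of low insulin share, at 0.049. With each library left out in turn, log2 fold changes that turned sign at 35 against 11.8 mM ranged over -0.59 to 0.33 for Hk1, -0.16 to 0.58 for Igfbp4, -0.70 to 0.27 for Smad3, -0.18 to 0.31 for Lmo4, -1.03 to 0.097 for Acot7 and -0.33 to 0.23 for Zfp36l1. At 20 against 11.8 mM they ranged over -0.76 to 0.16 for Hk1, -0.18 to 0.17 for Oat, -0.94 to 0.038 for Smad3, -0.30 to 0.10 for Lmo4, -0.39 to 0.47 for Acot7 and -0.30 to 0.28 for Zfp36l1. At 35 against 20 mM they ranged over -0.022 to 0.37 for Lmo4, -1.25 to 0.033 for Acot7 and -0.35 to 0.17 for Zfp36l1. The cause was not tested.

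Counts over all genes moved more. At 35 against 11.8 mM, 84 calls became 148 with no filter on low counts and 41 to 138 with 1 library left out, 41 without 35 mM replicate 1 and 138 without 11.8 mM replicate 1. At 20 against 11.8 mM, 18 became 51 with no filter, 65 with DESeq2, 11 with only the 2 concentrations compared and 7 to 35 with 1 library left out. At 35 against 20 mM, 3 became 1 to 7 with 1 library left out. For any difference, 59 became 126 with no filter, 89 with DESeq2 and 34 to 75 with 1 library left out.

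Same-numbered libraries did not deviate together (r from -0.15 to 0.046 in 9 pairs), so replicate numbers were taken as names only. A replicate block gave 0 members called in every comparison and 74, 13 and 3 genes called at 35 against 11.8, 20 against 11.8 and 35 against 20 mM, and 51 for any difference. It took Odc1 to an adjusted p of 0.0535 and Igf1r to 0.0640 in edgeR's test. With 12.4 to 69.0 counts per library for the tested members, a change the size of the smallest called (0.51 at 35 against 11.8 mM) lies within most members' intervals.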
